A study of Mus musculus with 6 samples.

Results

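Muscle contraction begins when a voltage change is turned into calcium release, and the genes described here encode parts of that machinery. They are 10 genes, chosen by name with earlier results of these data known. Cacnb1, Cacng1 and Stac3 belong to the voltage sensor, and Ryr1, Trdn and Jsrp1 to the calcium release side. The others are the junctophilins Jph1 and Jph2, and Stim1 and Orai1 of store-operated calcium entry. All probes carrying 1 of these symbols alone were taken, which gave 20 probes, out of 34885 such probes for 19057 genes on the array. RNA came from 3 tibialis anterior (TA) muscles transduced with AAV8-Prox1, an adeno-associated viral vector that encodes the transcription factor Prox1, and from 3 TA muscles transduced with AAV8-mCherry, which encodes a red fluorescent reporter sent to the nucleus. All muscles were from male C57Bl/6J mice (C57Bl/6JOlaHsd in the study's methods), aged 3 months by the sample labels, injected at 8 weeks of age with 30 µl per muscle and examined 4 weeks later. Both groups had received virus, and the control vector went into the muscle of the opposite leg. The labels do not say which muscles shared a mouse, and the promoter driving the vectors is not given in the sources used here.

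In a skeletal muscle fibre, the transverse tubule carries the action potential inwards and meets the sarcoplasmic reticulum (SR) at the triad. There the voltage sensor, the L-type calcium channel, opens the ryanodine receptor Ryr1 by direct coupling, while junctophilins hold the opposing membranes together. When the SR is emptied, Stim1 in the SR membrane senses the loss and opens the Orai1 channel at the surface, which is store-operated calcium entry. The question put to the arrays was how the transcripts of this machinery stood in AAV8-Prox1 muscles beside AAV8-mCherry muscles.

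Whole muscle was measured, so that fewer cells of a type and less RNA per cell cannot be told apart. A log2 signal of 7 was taken as the background limit, which 10667 to 10672 probes per array reached, and the median signal was 6.61 on each array. Over probes with a mean log2 signal of 7 or more, correlations between arrays were 0.990 to 0.994 within groups and 0.967 to 0.974 between groups. Both probes for Prox1 lay at background in all 6 muscles, at 6.54 ± 0.05 in AAV8-Prox1 muscles and 6.58 ± 0.04 in AAV8-mCherry muscles for the brighter probe (SD, n = 3 each). Whether the vector carries the sequences these probes detect is not given in the sources used here, so Prox1 itself does not check the labels.

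Promoter sequences from RefSeq (mouse build GRCm38.p6) covered 5 of the 10 genes with 7 promoters. Those of 4 genes whose transcripts were lower in AAV8-Prox1 muscles are printed, since the report turns on them. Each run holds the 250 bases before the transcription start, from 5′ to 3′ on the gene's strand. Capitals mark an E-box, the letters CANNTG bound by the MyoD family of muscle transcription factors. The window of the first of 2 Jph2 promoters lies at chr2:163397994-163398243 on the minus strand, the Stim1 window at chr7:102267569-102267818 on the plus strand, the Orai1 window at chr5:123014824-123015073 on the plus strand and the Ryr1 window at chr7:29125152-29125401 on the minus strand.
Jph2: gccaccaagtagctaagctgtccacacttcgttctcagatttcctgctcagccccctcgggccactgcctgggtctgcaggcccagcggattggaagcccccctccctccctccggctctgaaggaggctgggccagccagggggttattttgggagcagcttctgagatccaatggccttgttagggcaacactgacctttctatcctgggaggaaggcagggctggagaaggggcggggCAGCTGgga
Stim1: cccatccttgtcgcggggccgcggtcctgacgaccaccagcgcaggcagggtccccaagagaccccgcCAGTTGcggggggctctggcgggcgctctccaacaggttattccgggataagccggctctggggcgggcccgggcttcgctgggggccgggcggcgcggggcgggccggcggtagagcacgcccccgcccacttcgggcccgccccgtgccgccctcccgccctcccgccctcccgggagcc
Orai1: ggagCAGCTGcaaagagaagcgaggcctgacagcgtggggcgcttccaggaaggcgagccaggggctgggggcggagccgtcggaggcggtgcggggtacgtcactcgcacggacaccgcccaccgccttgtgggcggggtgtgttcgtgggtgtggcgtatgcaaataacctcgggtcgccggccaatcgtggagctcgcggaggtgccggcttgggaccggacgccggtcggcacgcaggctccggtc
Ryr1: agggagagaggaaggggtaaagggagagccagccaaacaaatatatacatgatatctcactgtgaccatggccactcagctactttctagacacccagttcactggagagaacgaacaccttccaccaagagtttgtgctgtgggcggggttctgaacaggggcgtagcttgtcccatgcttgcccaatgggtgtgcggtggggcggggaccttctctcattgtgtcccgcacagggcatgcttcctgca
The E-box of Jph2 began 9 bases before the start, that of Stim1 182 bases and that of Orai1 246 bases before it, and the Ryr1 window held none. With both strands searched, 5 of the 7 promoters (71.4%) had an E-box, against 66.2% of 32841 promoters of all genes. The MEF2-type motif, CTA and TAG with 4 free bases between them, was in 0 of the 7 promoters and in 3.2% of all promoters. GGAAA, the core read by NFAT factors, was in 4 of the 7 (57.1%) and in 55.6% of all. The windows of the 2 Jph2 promoters share most of their bases, so the same Jph2 E-box and GGAAA are counted in each. In these 7 windows no match of a motif overlapped a match of another, and the matches are given as a description only.

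Both junctophilins and both store-operated entry genes were lower in AAV8-Prox1 muscles, as was the release channel. By the brightest probe of each gene, Jph2, Jph1, Stim1, Orai1 and Ryr1 were lower with AAV8-Prox1 in limma's moderated test (threshold, an adjusted p under 0.05). No gene of the 10 was higher, at that threshold or at an unadjusted p under 0.05. The 5 lower genes of 10 stood beside 4.21% lower (802) and 5.23% higher (997) among all 19057 genes. Of the 9 genes above background in at least 1 group, the same 5 were lower, beside 11.2% lower and 13.2% higher among 7010 such genes. The 2 groups did not overlap for 6 genes, all lower in AAV8-Prox1 muscles, beside 20.7% of the 7010 genes with groups apart in that direction. The median log2 fold change of the 10 genes was -0.28, against 0.01 over the genes above background. Because the members were chosen with earlier results of these data known, these comparisons with all genes are a description only.

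**Figure D1:**
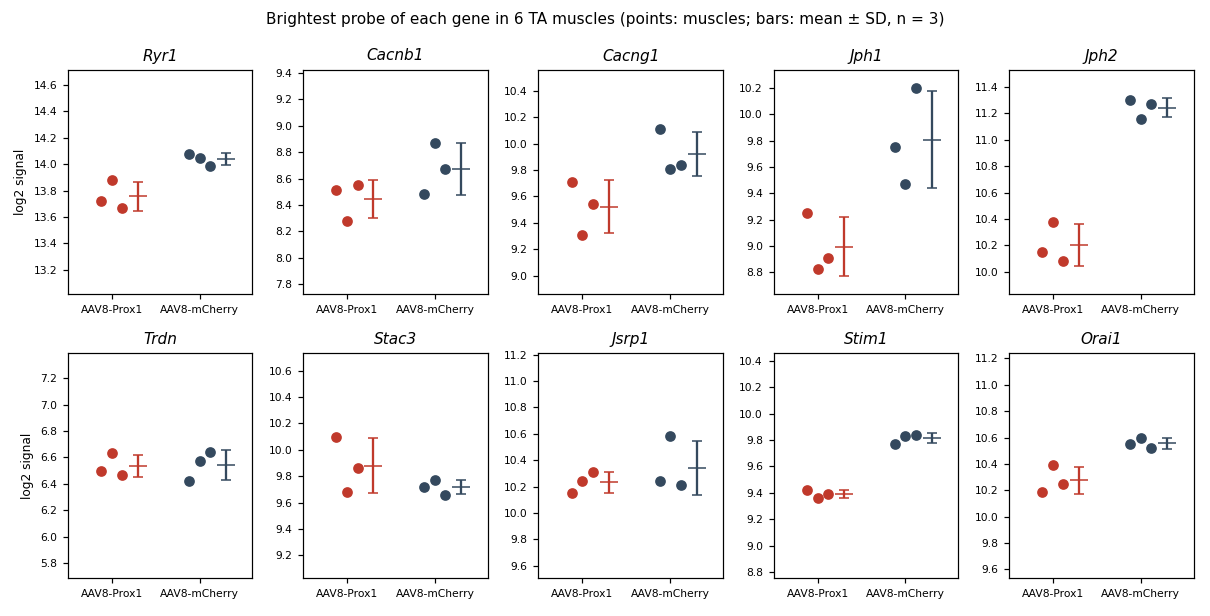
Log2 signal of the brightest probe of each of the 10 genes in every TA muscle. Points are muscles, AAV8-Prox1 left in red and AAV8-mCherry right in dark blue; the cross and bar are the mean ± SD (n = 3), and every panel spans the same height on its own range of log2 signal. Jph2 shows the widest gap between the groups, Stim1 shows tight groups that stand apart, and Trdn lies under the background limit of 7 in both groups.

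The voltage sensor side was represented by Cacnb1, Cacng1 and Stac3, none of which passed. Cacng1, the gamma subunit of the muscle L-type channel, had log2 signals of 9.71, 9.31 and 9.54 in AAV8-Prox1 muscles, against 10.11, 9.81 and 9.84 in AAV8-mCherry muscles. Every AAV8-Prox1 muscle was below every AAV8-mCherry muscle, by a gap of 0.10. The log2 fold change was -0.40 (SE 0.11, 95% confidence interval -0.66 to -0.14), with an adjusted p of 0.103. It passed with trended, robust variances (adjusted p = 0.0352) or a test on bright probes only (adjusted p = 0.0271), and in 0 of 6 fits that left out 1 muscle. Cacnb1, the beta subunit that carries the channel to the triad, gave 8.51, 8.28 and 8.55 in AAV8-Prox1 muscles and 8.48, 8.87 and 8.67 in AAV8-mCherry muscles. The groups overlapped, and the log2 fold change of -0.23 had an interval of -0.48 to 0.02 (adjusted p = 0.379). A second Cacnb1 probe was under the background limit in both group means. Stac3, an adaptor that coupling in skeletal muscle requires, had the only log2 fold change above 0 among the 10 genes. Its signals were 10.10, 9.68 and 9.86 in AAV8-Prox1 muscles and 9.72, 9.77 and 9.66 in AAV8-mCherry muscles. They overlapped, with a log2 fold change of 0.16 and an interval of -0.06 to 0.39 (adjusted p = 0.525). The pore-forming subunit gene Cacna1s was not analysed here.

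On the release side, Ryr1 was lower in AAV8-Prox1 muscles while Trdn and Jsrp1 did not pass. Ryr1, the calcium release channel of the SR, was seen by 5 probes. The brightest read 13.72, 13.88 and 13.67 in AAV8-Prox1 muscles and 14.08, 14.05 and 13.99 in AAV8-mCherry muscles. These values stand apart and near the top of the array's range. The log2 fold change was -0.28 (SE 0.06, adjusted p = 0.0315), or 1.22-fold lower. A dimmer pair of probes had log2 fold changes further from 0, at -0.63 each. ILMN_1220181 gave 8.58, 8.80 and 8.57 in AAV8-Prox1 muscles against 9.20, 9.33 and 9.32 in AAV8-mCherry muscles (adjusted p = 0.00225), and ILMN_1258021 gave 7.56, 7.71 and 7.38 in AAV8-Prox1 muscles against 8.11, 8.22 and 8.22 in AAV8-mCherry muscles (adjusted p = 0.00411). Both were 1.55-fold lower with groups apart. The remaining pair did not pass. ILMN_2842357 had groups apart at -0.37 on the log2 scale (adjusted p = 0.0937), and ILMN_2733073 had overlapping groups with -0.35 (adjusted p = 0.299). So all 5 probes of Ryr1 had log2 fold changes below 0, and 3 of them passed. Their mean gave -0.45 (adjusted p = 0.014). The call on the brightest probe held without AAV8-Prox1 muscle 2 (adjusted p = 0.0124) and was lost without any other muscle, with adjusted p between 0.0636 and 0.107, and also with trended, robust variances (adjusted p = 0.0623).

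Jsrp1 encodes an SR membrane protein of the triad that binds the voltage sensor and calsequestrin. Its signals were 10.15, 10.24 and 10.31 in AAV8-Prox1 muscles and 10.24, 10.58 and 10.21 in AAV8-mCherry muscles. The groups overlapped, and the log2 fold change was -0.11 with an interval of -0.34 to 0.12 (adjusted p = 0.724). Its sign turned without AAV8-mCherry muscle 2, at 0.01. Trdn, triadin, links calsequestrin to Ryr1 and had a single probe, at 6.50, 6.63 and 6.47 in AAV8-Prox1 muscles and 6.42, 6.57 and 6.64 in AAV8-mCherry muscles. All 6 values lie under the background limit, so a difference in Trdn was not detectable with this probe.

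The junctophilins showed the largest differences of the 10 genes. Jph2, which tethers the SR to the surface membrane system, had log2 signals of 10.15, 10.38 and 10.08 in AAV8-Prox1 muscles, against 11.30, 11.16 and 11.27 in AAV8-mCherry muscles. The lowest AAV8-mCherry muscle was 0.78 above the highest AAV8-Prox1 muscle. Group means were 10.20 ± 0.16 in AAV8-Prox1 muscles and 11.24 ± 0.07 in AAV8-mCherry muscles (SD, n = 3 each). The log2 fold change was -1.04 (SE 0.08, adjusted p = 0.000494), or 2.06-fold lower, and 48 of the 7010 genes above background (0.685%) had a lower one. A second probe, ILMN_2628876, read 7.15, 7.56 and 7.30 in AAV8-Prox1 muscles and 8.36, 8.40 and 8.18 in AAV8-mCherry muscles, 1.97-fold lower (adjusted p = 0.00208). It thus gave a difference of like size at a dimmer level. The third, ILMN_2628875, was under the background limit in every AAV8-Prox1 muscle, at 6.88, 6.73 and 6.81, against 7, 7.43 and 7.36 in AAV8-mCherry muscles (adjusted p = 0.0507), so that its difference is only a bound. Jph2 passed in every one of 12 alternative settings, with adjusted p up to 0.00959 and log2 fold changes from -1.13 to -0.82.

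Jph1, the junctophilin restricted mainly to skeletal muscle, was measured by a pair of probes. The brighter one gave 9.25, 8.83 and 8.91 in AAV8-Prox1 muscles and 9.75, 9.47 and 10.20 in AAV8-mCherry muscles. The groups stood apart, although the AAV8-mCherry muscles were spread over 0.37 (SD) on the log2 scale. The log2 fold change was -0.81 (SE 0.18, interval -1.24 to -0.38, adjusted p = 0.0454), or 1.75-fold lower. The dimmer probe, ILMN_1217728, was tighter, at 8.03, 7.79 and 7.94 in AAV8-Prox1 muscles and 8.65, 8.78 and 8.80 in AAV8-mCherry muscles. It was 1.77-fold lower with an adjusted p of 0.000728. The fold sizes of both probes were thus alike, and their adjusted p values were not. Without AAV8-Prox1 muscle 2 or 3, or AAV8-mCherry muscle 1 or 3, the brighter probe no longer passed (adjusted p = 0.16, 0.135, 0.0981 and 0.0735 in that order).

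**Figure D2:**
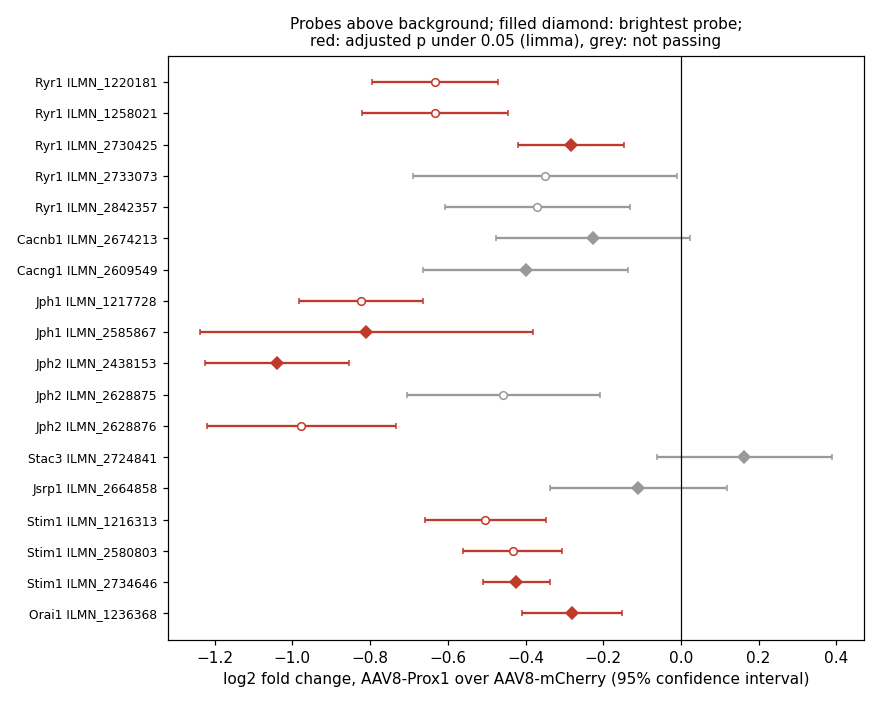
Log2 fold change of AAV8-Prox1 over AAV8-mCherry muscles for the 18 probes of the 10 genes that were above background in at least 1 group. Diamonds are the brightest probe of a gene and circles the others, bars are 95% confidence intervals, and red marks an adjusted p under 0.05 in limma. Of the 18 probes, 17 lie below 0 and 11 are red, all to the left of 0. Every red probe belongs to Jph2, Jph1, Stim1, Orai1 or Ryr1. Probes of the same gene are not separate evidence, and no such count over all probes of the array is given here.

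Transcripts of the sensor and of the channel of store-operated entry were lower in AAV8-Prox1 muscles, with smaller fold changes than those of the junctophilins. Stim1, the calcium sensor of the SR, had 3 probes. The brightest read 9.42, 9.36 and 9.39 in AAV8-Prox1 muscles and 9.77, 9.83 and 9.84 in AAV8-mCherry muscles. These were the tightest groups among the members that passed, at 9.39 ± 0.03 in AAV8-Prox1 muscles and 9.81 ± 0.04 in AAV8-mCherry muscles (SD, n = 3 each). The log2 fold change was -0.42 (SE 0.04, adjusted p = 0.00084), or 1.34-fold lower. ILMN_1216313 gave 7.85, 7.89 and 7.68 in AAV8-Prox1 muscles against 8.26, 8.26 and 8.41 in AAV8-mCherry muscles, 1.42-fold lower (adjusted p = 0.00494). ILMN_2580803 gave 7.28, 7.28 and 7.43 in AAV8-Prox1 muscles against 7.81, 7.69 and 7.79 in AAV8-mCherry muscles, 1.35-fold lower (adjusted p = 0.00399). All 3 probes therefore kept the groups apart and passed. Stim1 also passed in each of the 12 alternatives, with adjusted p up to 0.0124.

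Orai1, the pore of store-operated entry, had a single probe, with signals of 10.19, 10.39 and 10.25 in AAV8-Prox1 muscles and 10.55, 10.60 and 10.52 in AAV8-mCherry muscles. The groups stood apart by 0.13. The log2 fold change was -0.28 (SE 0.06, interval -0.41 to -0.15, adjusted p = 0.0271), or 1.21-fold lower. The call was kept without AAV8-Prox1 muscle 2 (adjusted p = 0.0128) and lost without any other muscle, with adjusted p between 0.0635 and 0.088, and with trended, robust variances (adjusted p = 0.117).

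**Figure D3:**
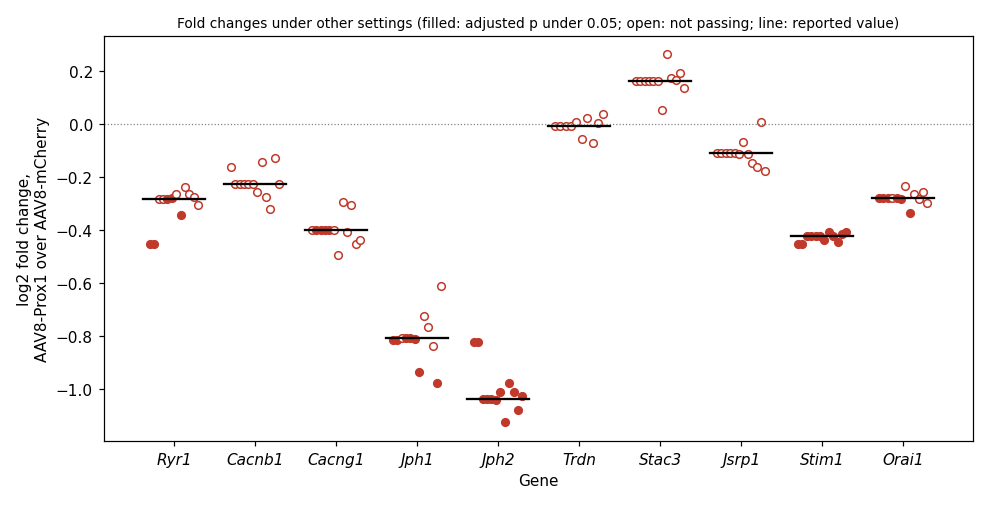
Log2 fold change of AAV8-Prox1 over AAV8-mCherry muscles for each gene under the alternative settings, 1 point per setting (12 settings, 10 for Trdn), with the reported value as a line. Filled points passed an adjusted p under 0.05 and open points did not. Jph2 and Stim1 are filled throughout, while Jph1, Orai1 and Ryr1 are mixed and stay below 0.

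Related genes were described from 5 lists of 56 genes, of which 49 were measured and 28 were above background. By the brightest probe, 6 of the 49 were lower in AAV8-Prox1 muscles, 2 were higher and 41 did not pass. Among all 19057 genes, 4.21% were lower and 5.23% higher. Of the 28 above background, 6 were lower and 1 was higher, beside 11.2% lower and 13.2% higher among 7010 such genes. The same shares stand beside the counts of each list below, as a description only. The median log2 fold change was -0.01 over the 49 and -0.14 over the 28 above background. The other genes of these lists were not analysed here.

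Paralogues of the members came first. Of 18 measured, 4 were above background and none passed in either direction, with 1 lower and 0 higher at an unadjusted p under 0.05 in limma. Stim2, the second SR calcium sensor, had log2 signals of 7.24, 7.23 and 7.20 in AAV8-Prox1 muscles and 7.28, 7.66 and 7.49 in AAV8-mCherry muscles (log2 fold change -0.25, adjusted p = 0.181). Another Stim2 probe above background, ILMN_2685958, had -0.20 with groups apart (adjusted p = 0.177). Cacng6, another gamma subunit, had overlapping groups and a log2 fold change of -0.29 (adjusted p = 0.346). Orai3 and Cacnb4 were close to background, at log2 fold changes of 0.03 and 0.00. Whether Stim1 and Stim2 differed in response was not tested.

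Partners of the voltage sensor and release channel did not pass either, with 0 of 9 lower and 0 higher in limma, and 2 lower and 1 higher at an unadjusted p under 0.05. S100a1, a calcium-binding protein that acts on Ryr1, had overlapping groups and a log2 fold change of -0.41 (adjusted p = 0.279). Calm2, a calmodulin gene, had -0.33, and Calm3 had -0.09. Another Calm2 probe above background, ILMN_2451115, had -0.38 with groups apart (adjusted p = 0.0824). Fkbp1a, the immunophilin that binds Ryr1, had 0.16 (adjusted p = 0.218), with its 3 AAV8-Prox1 muscles at 11.40 to 11.53 and its AAV8-mCherry muscles at 11.20 to 11.39.

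In the SR lumen and membrane, 2 of 7 genes were lower and 0 were higher, with 4 lower and 0 higher at an unadjusted p under 0.05. Casq1, the calsequestrin that stores calcium in fast fibres, gave 10.48, 10.85 and 10.69 in AAV8-Prox1 muscles and 12.36, 11.96 and 12.16 in AAV8-mCherry muscles. The groups lay far apart. Its log2 fold change of -1.49 (SE 0.12, adjusted p = 0.000632) was below that of any of the 10 members. Sypl2, mitsugumin 29 of the triad, read 11.86, 11.86 and 11.54 in AAV8-Prox1 muscles and 12.16, 12.32 and 12.31 in AAV8-mCherry muscles. Its log2 fold change was -0.51 (adjusted p = 0.018), and the call was lost without AAV8-mCherry muscle 2 or 3, with adjusted p up to 0.0702. A second Sypl2 probe above background, ILMN_2576743, had -0.16 and did not pass (adjusted p = 0.18). Tmem38a, a potassium channel of the SR, had -0.19 (adjusted p = 0.136). Casq2, the calsequestrin of slow and cardiac muscle, had -0.24 (adjusted p = 0.202).

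Genes that shape the transverse tubule gave 2 lower and 1 higher of 7. Cav3, caveolin of muscle, gave 8.19, 8.37 and 8.35 in AAV8-Prox1 muscles and 8.81, 8.67 and 8.59 in AAV8-mCherry muscles (log2 fold change -0.39, adjusted p = 0.0181). Dysf, dysferlin of membrane repair, gave 9.52, 9.65 and 9.53 in AAV8-Prox1 muscles and 9.88, 9.86 and 10.09 in AAV8-mCherry muscles (-0.38, adjusted p = 0.0193). A second Dysf probe, ILMN_3134844, was lower as well (-0.39, adjusted p = 0.023), and another, ILMN_2674315, did not pass (adjusted p = 0.104), with every AAV8-Prox1 muscle under the background limit, at 6.82 to 6.91, and AAV8-mCherry muscles at 6.97 to 7.08. The Dysf call did not hold without AAV8-Prox1 muscle 1 or 3, with adjusted p up to 0.07. Bin1, which bends the tubule membrane, was the higher one, at 13.03, 13.01 and 13.01 in AAV8-Prox1 muscles and 12.65, 12.83 and 12.81 in AAV8-mCherry muscles (0.25, adjusted p = 0.03). Its call was lost without any single AAV8-Prox1 muscle or AAV8-mCherry muscle 3, with adjusted p up to 0.098, and another Bin1 probe above background, ILMN_2628339, had -0.06 with overlapping groups. Ank1 had groups apart and a log2 fold change of -0.69, with an adjusted p of 0.0828.

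Regulators of store-operated entry gave 2 lower and 1 higher of 8. Stimate, an endoplasmic reticulum protein that promotes Stim1 activation, read 8.34, 8.47 and 8.52 in AAV8-Prox1 muscles and 8.87, 8.98 and 8.86 in AAV8-mCherry muscles. Its log2 fold change of -0.46 had an adjusted p of 0.00365. Cracr2b, of the family of Orai1 regulators with EF hands, read 7.80, 7.88 and 7.94 in AAV8-Prox1 muscles and 8.31, 8.42 and 8.24 in AAV8-mCherry muscles, with groups apart (log2 fold change -0.45, adjusted p = 0.00408). A second probe of Cracr2b, ILMN_2720663, was lower too (-0.33, adjusted p = 0.00522). Both genes passed without each muscle in turn. Trpc1 was called higher with both group means under the background limit, so no fold change is given for it. The call was lost in all 6 fits that left out 1 muscle, with adjusted p up to 0.124. Saraf, which closes store-operated entry down, had overlapping groups and a log2 fold change of 0.07. Its other probes above background, ILMN_2758878 and ILMN_2881296, had -0.13 and -0.10 with overlapping groups and did not pass. Selenon, the SR selenoprotein, had 0.26 (adjusted p = 0.133).

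**Figure D4:**
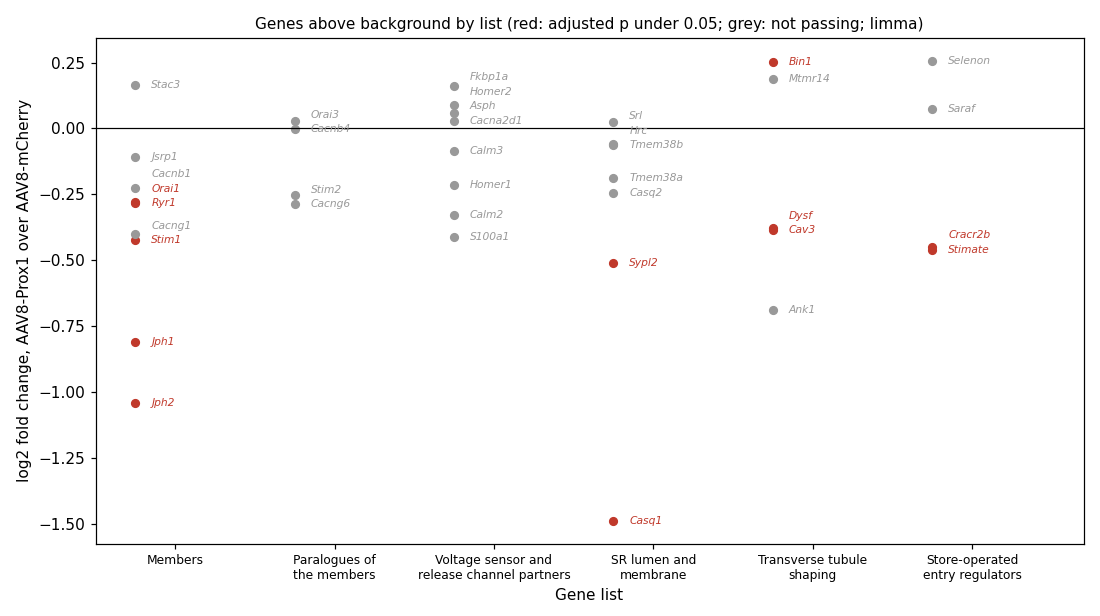
Log2 fold change of AAV8-Prox1 over AAV8-mCherry muscles, by brightest probe, for the members (left) and for the genes above background in the 5 related lists. Each point is a gene, red where the adjusted p was under 0.05 in limma and grey otherwise. Casq1 at -1.49 lies lowest, Jph2 at -1.04 and Jph1 at -0.81 follow, and Bin1 at 0.25 is the highest red point.

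Fibre type and cell type markers differed between the groups as well, and their part in the results on the 10 genes was not tested. Of 10 slow fibre markers, 6 were higher in AAV8-Prox1 muscles and 0 lower. Of these 6, 5 were above background, with Tnni1 and Pln at background. At an unadjusted p under 0.05 in limma, 7 were higher and 1, Casq2, was lower. The slow troponin Tnnc1 stood at 13.70 to 13.98 in AAV8-Prox1 muscles and 8.11 to 8.66 in AAV8-mCherry muscles. The summed linear signal of the slow fibre markers was 53135 to 61903 in AAV8-Prox1 muscles and 8580 to 14028 in AAV8-mCherry muscles. Bright genes weigh most in this sum, Myl2 and Tnnc1 in AAV8-Prox1 muscles and Myl3 in AAV8-mCherry muscles. Myl3 had overlapping groups, at 12.29 to 13.27 in AAV8-Prox1 muscles and 12.17 to 13.26 in AAV8-mCherry muscles, and did not pass. Myh7, the slow myosin, had 6.84 to 7.46 in AAV8-Prox1 muscles and lay under the background limit in AAV8-mCherry muscles, and did not pass (adjusted p = 0.0959). Of 10 markers of the skeletal muscle fibre, mostly of fast fibres, 5 were lower (Myh4, Myh1, Tnnt3, Tnni2 and Mylpf) and 0 higher, also at an unadjusted p under 0.05. Their sums were 165565 to 172103 in AAV8-Prox1 muscles and 190197 to 196254 in AAV8-mCherry muscles, and include probes near the top of the array's range. Among these were Acta1, at 14.84 to 14.87 in AAV8-Prox1 muscles and 14.68 to 14.87 in AAV8-mCherry muscles, and Ckm, at 14.63 to 14.68 in AAV8-Prox1 muscles and 14.54 to 14.80 in AAV8-mCherry muscles, and no fold change is given for this pair. The labelled tissue thus had its defining markers in both groups.

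Among other cells, 2 of 10 endothelial markers were lower and 0 higher, with Kdr at background. At an unadjusted p under 0.05 in limma, 6 were lower and 0 higher. Their summed signals were 6954 to 8006 in AAV8-Prox1 muscles and 9098 to 10958 in AAV8-mCherry muscles. Of 10 macrophage markers, 3 were higher (Cd14, Mrc1 and C1qc) and 0 lower, and 7 were higher and 0 lower at an unadjusted p under 0.05 in limma. Their sums were 3228 to 4050 in AAV8-Prox1 muscles and 1984 to 3115 in AAV8-mCherry muscles. The brightest gene weighs most in such a sum, here Lyz1, which had overlapping groups and did not pass in limma (adjusted p = 0.232). The macrophage markers Adgre1, Csf1r, Itgam, Cd14 and C1qa were at background. Of 8 fibroblast markers, 1 was higher and 0 were lower, and 4 were higher and 0 lower at an unadjusted p under 0.05 in limma. Their sums were 5305 to 6196 in AAV8-Prox1 muscles and 3354 to 4698 in AAV8-mCherry muscles, with Col1a2 and Col3a1 at background. The brightest fibroblast marker was Dcn, which did not pass in limma (adjusted p = 0.0695). None of 5 smooth muscle markers passed in limma, with 3 lower and 0 higher at an unadjusted p under 0.05. Their sums were 6623 to 7255 in AAV8-Prox1 muscles and 8009 to 8426 in AAV8-mCherry muscles, with Tagln and Cnn1 at background. All 6 T cell markers and all 5 markers of cardiac muscle, in which Jph2 and Stim1 are also used, were at background, and none passed in limma. At an unadjusted p under 0.05, 0 T cell markers and 1 cardiac marker differed.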

How the data were processed

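RNA of 6 TA muscles was hybridized to Illumina BeadChips (Mouse WG-6 v2), 1 array each. The values are log2 signals as deposited by the authors, who used GenomeStudio for quality control and quantile-normalized in Chipster. Background correction is not given in the sources used here. A raw table held 12 per-sample columns whose names fit none of the samples. It was therefore left out, and detection p-values played no part. Quantile normalization makes the distributions alike, so a shift shared by all genes cannot be seen.

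The test was limma's (version 3.58.1, R 4.3.3), two-sided, with lmFit and eBayes on 2 groups. P-values of the 45281 probes were adjusted together by Benjamini-Hochberg, with 0.05 as threshold. Probes with 1 symbol (34885) entered gene counts, those with several (18) or none (10378) did not. A gene stood for its brightest probe. A gene was above background where a group mean reached a log2 signal of 7. Members and lists were chosen with earlier results of these data known. All members are named, with every probe, and up to 4 genes of each related list with the smallest adjusted p among those above background. Trpc1, Myh7, Tnnc1 and the other markers were named after their values were seen. The labels do not say that the muscles came from separate mice, so p-values measure the spread between these muscles. An exact permutation test of 3 against 3 cannot give a p below 0.1. The number of arrays limits the precision.

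Deviations from the group mean of arrays with equal replicate numbers correlated at -0.182, 0.0509 and -0.123. The numbers were therefore not taken to pair muscles. Alternatives were the mean of all or of bright probes, a replicate block, trended robust variances, a filter on dim probes, cyclic loess, an adjusted p under 0.01 and leaving out each muscle. The test was tested on simulated data, with 50 of 45281 probes changed at each fold size. Far fewer probes were changed than the 802 lower and 997 higher genes called in the real data. The p-value needed to pass was therefore smaller in the simulation, and the shares called there need not hold for the real data. Of 50 probes given a log2 fold change of -0.25, 8 were called, and of 50 given -0.5, 23 were called. At -1, 45 of 50 were called, and at -2, 50 of 50. False calls made up 13 of all 139 calls. A gene that did not pass is therefore not shown to be unchanged.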

Additional observations from a re-analysis of the deposited data

How the results depend on the processing

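Of 118 log2 fold changes of the 10 genes under the alternatives, 113 kept their sign. The 5 lower genes passed in 42 of 60 such fits, and Cacng1 passed in 4 of its 12. Lower members numbered 2 at an adjusted p under 0.01 and 2 to 4 without 1 muscle: 3 without AAV8-Prox1 muscle 1 or AAV8-mCherry muscle 2, 2 without AAV8-Prox1 muscle 3 or AAV8-mCherry muscle 1 or 3, and 4 without AAV8-Prox1 muscle 2. With the replicate number as a block, 4 members were lower: Ryr1 (adjusted p = 0.0528) and Jph1 (0.0685) no longer passed and Cacng1 did (0.0219), while 4 related genes were lower and 0 higher. Of these, Casq1, Stimate and Cracr2b were called without the block too and Calm2 was not (adjusted p = 0.0414 with it), while Sypl2 (0.0591), Dysf (0.0665), Cav3 (0.0853), Bin1 (0.0809) and Trpc1 (0.0709) no longer passed. Lower related genes numbered 3 at an adjusted p under 0.01. Higher related genes numbered 1 with the mean of all probes, 1 with the mean of bright probes, 1 with trended robust variances, 1 with the filter on dim probes, 0 at an adjusted p under 0.01, and 0 to 1 without 1 muscle. The Trdn log2 fold change, of values at background, ran from -0.0717 to 0.0383 without 1 muscle, and that of Jsrp1 from -0.177 to 0.00833. The cause of these changes was not tested.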
